A study of Mus musculus with 38 samples.

Results

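The genes described here are 10 feedback genes of the RAS-ERK pathway, Dusp4, Dusp6, Spry1, Spry2, Spry4, Spred1, Spred2, Etv4, Etv5 and Il17rd. They were chosen by name from the 29267 genes of the tables, with no threshold on measured values, and were matched by Ensembl identifier and followed over 38 mouse RNA libraries in 18 groups. All 10 passed the filter on low counts in every fit. The study compared naive and primed pluripotent cells and asked what c-Jun, a transcription factor of the AP-1 family, and its kinase JNK do when primed cells are turned back into naive ones.

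Naive embryonic stem cells (ESC, 5 libraries) grew in N2B27 with LIF and a pair of inhibitors, CHIR99021 against GSK3 and PD0325901 against the kinase MEK that activates ERK. Primed epiblast stem cells (EpiSC, 4 libraries) grew with Activin A and bFGF, an FGF ligand. An EpiSC line carrying an Oct4-GFP reporter and Klf4 under the CAG promoter (kEpiSC, 2 libraries) was moved to iCD1, a reprogramming medium whose composition is not given in the sources used here, and was collected on days 1, 2 and 3 (2 libraries each). The same days were collected with SP600125, an inhibitor of JNK (JNKi, 2, 3 and 2 libraries), and induced naive cells at the end of the course form the group kiPSC (2 libraries). EpiSC-like cells were also induced from wild type ESC and from ESC lacking c-Jun through CRISPR/Cas9, labelled iEpiSC, with no Klf4 transgene named, and kiEpiSC, with one (1 library of each kind and genotype). The kiEpiSC of both genotypes were collected again after 3 days in iCD1 without or with JNKi (2 libraries each). These are named WT and JunKO. The study's methods give the same cross, with males carrying the Oct4-GFP reporter, as the source of ESC and of EpiSC. The reporter is therefore not particular to kEpiSC. Of the ESC libraries, 2 carry the strain label CBA/CaJ X C57BL/6J and the other 3 none, and JunKO and WT cells differ in line as well as in genotype, which cannot be told apart. The dose of JNKi is not given for these libraries.

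Signals from FGF receptors pass through RAS, RAF and MEK to ERK, and active ERK switches on genes whose products turn the pathway down. Dusp4 and Dusp6 are phosphatases that take the activating phosphates off MAP kinases, Dusp4 in the nucleus and Dusp6 mainly from ERK in the cytoplasm. Sprouty and Spred proteins act upstream on RAS and RAF, and Il17rd, also called Sef, is a membrane protein that restrains FGF signalling. Etv4 and Etv5 are ETS transcription factors that FGF signalling induces and that carry its response. In mouse pluripotent cells FGF and ERK signalling drive the exit from the naive state, and primed cells are kept in FGF.

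The tables held between 2164711 and 15944950 expected counts per library. Klf4 stood at 65.19 and 102.61 TPM in kEpiSC and at 0.52 to 1.94 TPM in EpiSC. It was also at 36.61 TPM in the library labelled WT iEpiSC and 36.26 TPM in that labelled JunKO iEpiSC, beside 62.59 and 40.06 TPM in WT and JunKO kiEpiSC. The iEpiSC labels name no transgene. ESC, from which these cells were induced, held 109.76 to 225.83 TPM of Klf4. RNA of the cells' own gene and of a transgene cannot be told apart by these levels. The summed level of 10 naive markers was 6518 to 10018 TPM in ESC and at most 6.43 TPM in EpiSC replicates 2 to 4, but 289 TPM in EpiSC replicate 1. The summed level of 10 fibroblast or feeder markers reached 478 TPM in ESC replicate 5, which is the highest of all libraries, and 7.83 TPM in the lowest ESC library.

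Promoter sequence is shown for the gene that fell most between EpiSC and ESC (Dusp6), for the gene whose profile was closest to it (Spred1) and for a gene whose profile stood apart (Spry1). The windows are the 250 bases before the RefSeq start on GRCm38.p6, read 5′ to 3′, at chr10:99262981-99263230 on the plus strand for Dusp6, chr2:117120821-117121070 on the plus strand for Spred1 and chr3:37639697-37639946 on the plus strand for Spry1. Capitals mark the ETS core CGGAA on either strand, written TTCCG where it lies on the other strand.
Dusp6: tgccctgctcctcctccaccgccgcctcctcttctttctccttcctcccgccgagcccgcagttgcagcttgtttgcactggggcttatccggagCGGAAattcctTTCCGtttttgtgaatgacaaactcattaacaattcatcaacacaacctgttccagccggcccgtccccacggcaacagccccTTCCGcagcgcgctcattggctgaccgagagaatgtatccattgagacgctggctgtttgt
Spred1: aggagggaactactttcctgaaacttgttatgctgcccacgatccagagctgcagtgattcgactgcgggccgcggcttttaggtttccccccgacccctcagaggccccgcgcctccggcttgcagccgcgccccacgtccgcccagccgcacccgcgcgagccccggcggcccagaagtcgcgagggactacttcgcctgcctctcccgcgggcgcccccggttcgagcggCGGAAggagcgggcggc
Spry1: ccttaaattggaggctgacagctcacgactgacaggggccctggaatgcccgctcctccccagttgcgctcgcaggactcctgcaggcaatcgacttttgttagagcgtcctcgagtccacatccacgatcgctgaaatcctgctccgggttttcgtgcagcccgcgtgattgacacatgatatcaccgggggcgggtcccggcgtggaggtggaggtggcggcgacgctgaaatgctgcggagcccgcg
The core occurred 3 times in the Dusp6 window, 1 time in that of Spred1 and 0 times in that of Spry1. Promoter windows were found for 7 of the 10 genes, in 8 windows since Etv5 has 2 starts. Those of Il17rd and Spred2 held 2 cores each, and those of Spry2 and Etv5 held 0. Among all 32851 promoter windows of this length, 25.2% held the core on either strand. The longer ETS site CCGGAAG, in which the core lies, occurred in 6.91% of all windows, the AP-1 site TGANTCA in 6.75% and the cyclic AMP response element TGACGTCA in 1.55%, and each in 0 of the 8 windows. A match is a run of letters and not a measured binding site, and the lack of one says only that these letters are not in this window.

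**Figure D1:**
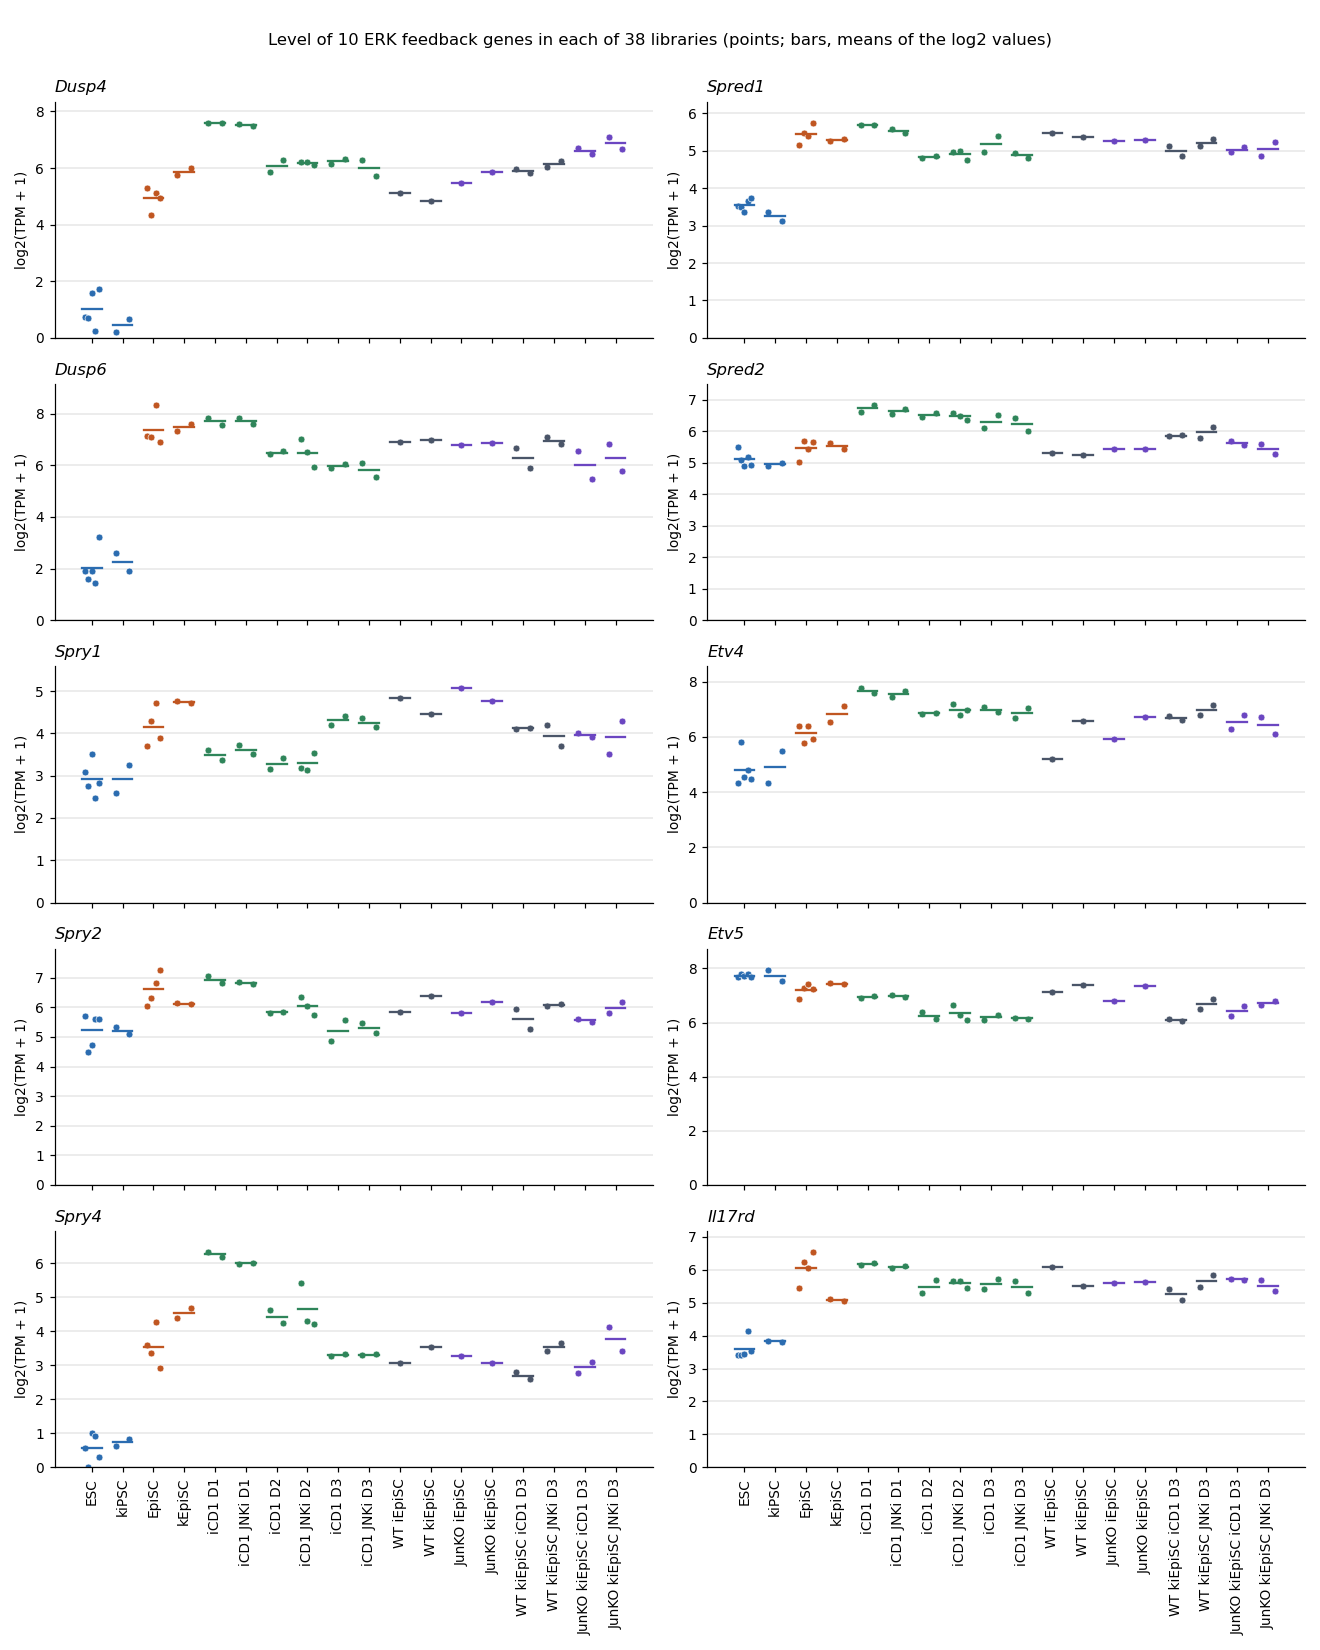
Level of each of the 10 genes in each of 38 libraries, as log2(TPM + 1), by group, with 1 point per library and a bar at the mean of each group. Dusp4, Dusp6 and Spry4 have their lowest means in ESC and kiPSC and their highest on day 1, while Etv5 is highest in ESC and kiPSC and lowest on day 3.

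ESC, the naive cells, held less RNA of 9 of the 10 feedback genes than EpiSC, and more of Etv5. The largest differences were at both phosphatases, Spry4 and Il17rd, and the smallest at Spred2. In edgeR's quasi-likelihood test with Benjamini-Hochberg adjustment, 9 genes were lower and 1 was higher, against a background of 50.9% of 13923 genes called, 23.8% lower and 27.1% higher. The median log2 fold change of the 10 genes was -1.80, beside 0.02 over all genes. In bulk RNA, fewer cells that express a gene and less RNA per cell cannot be told apart. The medium of ESC contains an inhibitor of MEK and that of EpiSC an FGF ligand, so cell state and medium cannot be told apart here. Nor can the way the libraries were read or processed, since 4 of the 5 ESC libraries, replicate 5 being the other, had a gap of 73.5 bases between gene length and effective length, where the remaining libraries of the series had gaps between 133 and 192 bases. Leaving out any single library, ESC replicate 5 and EpiSC replicate 1 included, kept the call of each gene other than Spred2 (Dusp4 at -5.07 to -4.35, Spry4 at -4.95 to -4.21, Il17rd at -2.84 to -2.51). With ESC replicate 5 as the only ESC library, 8 of the 10 calls held, and those of Spred2 and Etv5 did not.

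Dusp6, on chromosome 10 (GRCm38, 99263231 to 99267489), was at 2.74, 2.03, 2.73, 1.69 and 8.33 TPM in ESC and at 138.61, 136.52, 319.43 and 117.3 TPM in EpiSC. Its log2 fold change was -5.55 ± 0.44 (SE, adjusted p = 6.53e-07 in edgeR). The groups were far apart, and within them ESC replicate 5 and EpiSC replicate 3 stood above the others. Leaving out any single library gave -6.27 to -5.16. Dusp4, on chromosome 8 (34807297 to 34819894), was at 0.66, 0.64, 2.01, 0.19 and 2.31 TPM in ESC and at 38.18, 19.18, 34.07 and 29.91 TPM in EpiSC, a log2 fold change of -4.58 ± 0.44 (adjusted p = 3.05e-06). Its ESC values rest on 1 to 28 counts per library, so the level in ESC is known less well than that in EpiSC. Both phosphatases were thus separated without overlap.

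The Sprouty genes encode membrane-associated inhibitors of receptor tyrosine kinase signalling. Spry4 was at 0.49, 0, 1.01, 0.9 and 0.24 TPM in ESC, where it had 0 to 11 counts per library, and at 10.99, 9.25, 18.19 and 6.52 TPM in EpiSC. Its log2 fold change of -4.52 ± 0.52 (adjusted p = 1.55e-05 in edgeR) was about as large as that of Dusp4. Spry1 and Spry2 fell by less, at -1.36 ± 0.28 and -1.40 ± 0.27. Spry1 lay at 4.51 to 10.33 TPM in ESC and 12.11 to 25.44 TPM in EpiSC, and Spry2 at 21.36 to 50.8 TPM and 65.5 to 152.76 TPM. Neither overlapped between the groups, but Spry2 remained well expressed in ESC.

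Spred proteins share the Sprouty domain and hold back RAF. Spred1 was at 9.31 to 12.44 TPM in ESC and 34.7 to 52.45 TPM in EpiSC, with a log2 fold change of -2.10 ± 0.14 (adjusted p = 1.25e-07 in edgeR), the smallest error relative to its size among the 10 genes. Spred2 was at 28.71 to 43.87 TPM in ESC and 31.69 to 50.55 TPM in EpiSC. These ranges overlap, and the call for Spred2, -0.33 ± 0.13 with adjusted p = 0.0498, was lost by DESeq2 (adjusted p = 0.0578) and by leaving out any of 7 single libraries, namely ESC replicates 2, 3, 4 or 5 or EpiSC replicates 1, 2 or 4 (adjusted p 0.0640 to 0.167). Il17rd was at 9.64, 9.57, 9.76, 16.54 and 10.61 TPM in ESC and at 42.39, 74.55, 65.69 and 91.59 TPM in EpiSC, a log2 fold change of -2.66 ± 0.20 (adjusted p = 4.95e-07).

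The ETS factors Etv4 and Etv5 went opposite ways. Etv5 was at 204.77, 221.56, 210.04, 222.31 and 203.03 TPM in ESC and at 115.86, 154.22, 169.26 and 149.43 TPM in EpiSC. Every ESC library lay above every EpiSC library, with a log2 fold change of 0.47 ± 0.11 (adjusted p = 0.00262 in edgeR). Leaving out single libraries gave 0.45 to 0.52, always called. With ESC replicate 5 as the only ESC library the value was 0.42 with adjusted p = 0.117. Etv4 was at 18.86, 55.09, 22.26, 26.61 and 21.09 TPM in ESC and at 83.43, 53.21, 82.92 and 60.33 TPM in EpiSC. It was lower, with a log2 fold change of -1.501 ± 0.331 (adjusted p = 0.00209), although ESC replicate 2 reached the EpiSC range. In ESC, Etv5 was by TPM the most abundant of the 10 genes and Spry4 the least.

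**Figure D2:**
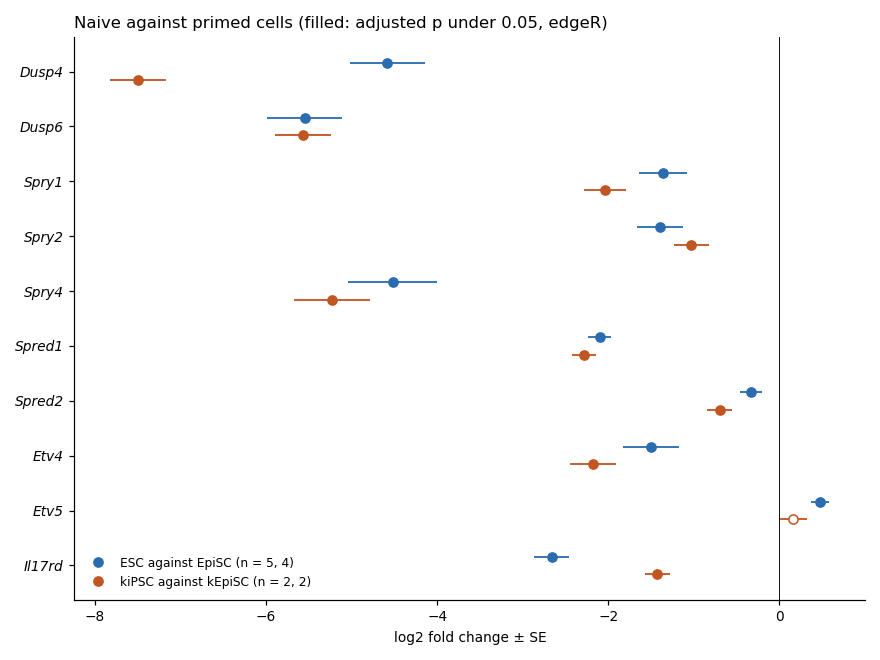
Log2 fold change of the 10 genes with its SE, from edgeR, for ESC against EpiSC and for kiPSC against kEpiSC, with filled points where the adjusted p was under 0.05. Dusp4, Dusp6 and Spry4 lie below -4 in both comparisons, and Etv5 is the one gene above 0 in both, called only for ESC against EpiSC.

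The second pair of naive and primed groups, kiPSC and the kEpiSC they came from, has no library in common with the first. The fit of ESC against EpiSC also held these libraries for its estimate of spread, so the tests of both pairs are not fully independent. The medium of kiPSC is not given in the sources used here. Here 9 genes fell and 0 rose, against 57.5% of 14892 genes called (29.2% lower and 28.2% higher), with a median of -2.11 beside -0.03 over all genes. Dusp4 fell from 52.39 and 62.26 TPM to 0.15 and 0.6 TPM, a log2 fold change of -7.49 ± 0.32 (adjusted p = 7.34e-11 in edgeR). Dusp6 fell from 162.06 and 192.82 TPM to 5.0 and 2.72 TPM (-5.57 ± 0.33), and Spry4 from 20.03 and 24.43 TPM to 0.54 and 0.78 TPM (-5.23 ± 0.45). The kiPSC values of Dusp4 rest on 2 and 5 counts. Among the others, Spred1 changed by -2.28 ± 0.14, Etv4 by -2.18 ± 0.27, Spry1 by -2.04 ± 0.24, Il17rd by -1.43 ± 0.14, Spry2 by -1.03 ± 0.20 and Spred2 by -0.70 ± 0.14. Etv5 did not pass the test (0.16 ± 0.16, adjusted p = 0.399), with 173.84 and 172.16 TPM in kEpiSC and 244.99 and 183.38 TPM in kiPSC.

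In edgeR, neither of the like-with-like comparisons called a feedback gene. For kiPSC against ESC, edgeR called 0 of the 10 genes (1 at an unadjusted p under 0.05, Dusp4 at -1.86 ± 0.80), DESeq2 called 0 and limma 0, against 0.144% of all genes. Over all 13923 genes, 765 had an unadjusted p under 0.05 in edgeR. For kEpiSC against EpiSC, edgeR called 0 (3 unadjusted, Dusp4 at 0.98, Etv5 at 0.32 and Il17rd at -0.99 ± 0.26 with adjusted p = 0.0837), DESeq2 called 1 (Il17rd at -1.02, adjusted p = 0.0107) and limma 0, against 1.26% of all genes. Here 2023 of the 13923 genes had an unadjusted p under 0.05 in edgeR. With all 38 libraries in 1 fit, edgeR called Dusp4 (1.01, 0.0204) and Il17rd (-0.97, 0.00705). The Il17rd values were 33.91 and 31.88 TPM in kEpiSC and 42.39 to 91.59 TPM in EpiSC. Without EpiSC replicate 1, the library with the raised naive markers, the adjusted p of Il17rd was 0.0326. These comparisons and that of ESC with EpiSC share libraries.

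Other genes of the pathway are given from lists, to be read against the 27.1% of all genes called higher and 23.8% called lower between ESC and EpiSC. Of 21 genes of the cascade itself, from adaptors to ERK, 6 were higher and 5 lower, with Ksr1, a scaffold of the cascade, at 2.68 ± 0.29 and Gab1, a docking protein, at 1.97 ± 0.18. Of 18 tested genes known to respond to ERK, 1 was higher and 8 lower, led by Myc at -4.54 ± 0.40. Of 8 tested MAP kinase phosphatases other than the members, 1 was higher and 3 lower. The remaining Spred gene, Spred3, changed by -3.51 ± 0.23. Among 11 FGF ligands and receptors 2 were higher and 4 lower. Fgf4, the FGF ligand of naive cells, changed by 4.40 ± 0.31.

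In bulk cells collected between kEpiSC and kiPSC, the feedback genes did not go down in a straight line. The paper calls this transition inefficient. The summed level of the naive markers was 70.3 to 110 TPM on day 3 and 6810 to 7872 TPM in kiPSC. The values are those of whole cultures, in which cells that become kiPSC cannot be told apart from the rest. On day 1 in iCD1, 6 of the 10 feedback genes rose over kEpiSC and 2 fell, against 46.3% of 14892 genes called (23.2% higher and 23.1% lower), with a median of 0.71 beside 0.00 over all genes. From day 1 to day 2, 8 fell and 0 rose, against 16.5% called (9.38% lower and 7.1% higher), with a median of -0.80 beside -0.01. Dusp4, Spry2, Spry4, Etv4 and Il17rd were the genes that rose first and then fell.

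Dusp4 rose from 52.39 and 62.26 TPM in kEpiSC to 189.97 and 191.38 TPM on day 1, a log2 fold change of 1.61 ± 0.17 (adjusted p = 1.85e-06 in edgeR). It was back at 57.48 and 77.39 TPM on day 2 (-1.46 ± 0.17) and at 69.58 and 79.68 TPM on day 3. Spry4 went from 20.03 and 24.43 TPM to 78.76 and 72.1 TPM on day 1 (1.64 ± 0.29), to 23.42 and 17.91 TPM on day 2 (-1.82 ± 0.29) and to 8.71 and 9.1 TPM on day 3. In both genes the day 1 libraries lay above all libraries of kEpiSC and of days 2 and 3.

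Il17rd rose from 33.91 and 31.88 TPM to 70.36 and 72.89 TPM (1.00 ± 0.14) and then changed by -0.64 ± 0.14 to 38.38 and 50.53 TPM on day 2. Spry2 rose from 69.75 and 68.42 TPM to 131.67 and 113.17 TPM (0.70 ± 0.19) and reached 55.52 and 56.48 TPM on day 2 (-1.09 ± 0.20). Etv4 rose from 92.7 and 138.76 TPM to 219.03 and 189.4 TPM (0.72 ± 0.24, adjusted p = 0.0221 in edgeR), and fell by 0.81 ± 0.24 to day 2. Without the first day 1 library, the rise of Spry2 (adjusted p = 0.0706), that of Etv4 (0.113) and the fall of Etv5 (0.0504) did not pass, and the count was 5 of 10. The rise of Etv4 was also lost without kEpiSC replicate 1 (0.201) or the second day 1 library (0.0520), and its fall to day 2 without any 1 of the 4 libraries (0.0903 to 0.173). The fall of Il17rd to day 2 was lost without the first day 2 library (0.0839).

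The other genes took different paths. Dusp6 did not pass on day 1 (224.7 and 190.49 TPM after 162.06 and 192.82 TPM, 0.10 ± 0.24), and then fell by 1.18 ± 0.25 to 85.89 and 92.4 TPM on day 2. Spred1 likewise did not pass on day 1 (0.23 ± 0.13) and then fell by 0.79 ± 0.13. Spred2 rose by 1.09 ± 0.14, from 48.76 and 42.12 TPM to 97.43 and 111.81 TPM, and did not pass between days 1 and 2 (-0.17 ± 0.14). Spry1 fell by 1.44 ± 0.23 on day 1, from 26.06 and 25.29 TPM to 11.27 and 9.3 TPM. Etv5 fell by 0.62 ± 0.16 on day 1, from 173.84 and 172.16 TPM to 118.23 and 126.36 TPM, and by 0.65 ± 0.16 on day 2, to 82.5 and 68.43 TPM. The second fall was lost without the second day 1 library (adjusted p = 0.0914) or the second day 2 library (0.137). On day 1, Spry1 and Etv5 were thus lowered while their relatives Spry4 and Etv4 were raised.

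**Figure D3:**
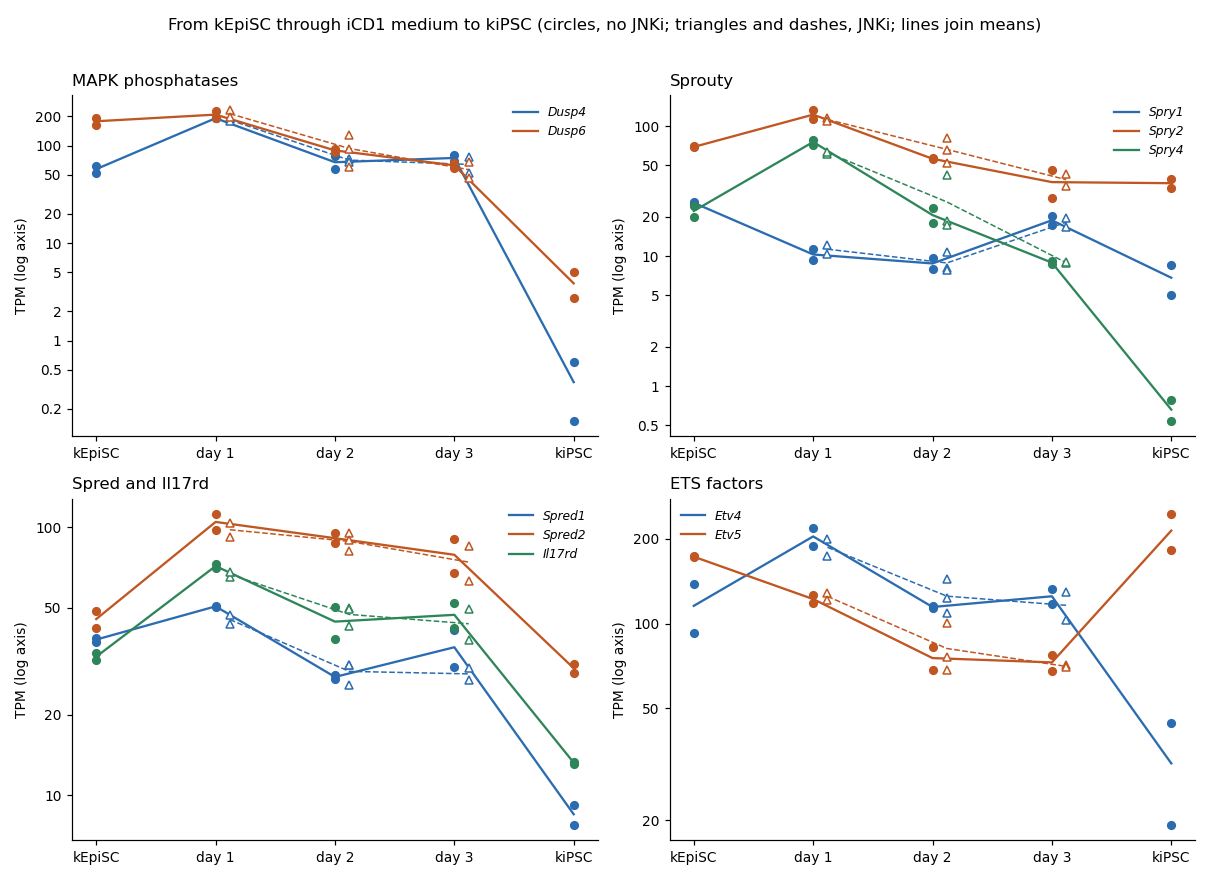
TPM on a log axis of the 10 genes from kEpiSC through days 1, 2 and 3 in iCD1 to kiPSC, with circles for libraries without JNKi and triangles for those with it, and lines through the means. The day 1 means of Dusp4 and Spry4 without JNKi are 190.7 and 75.4 TPM, above those of kEpiSC and of days 2 and 3. The Etv5 mean of the bulk cells is lower on day 3 than in kEpiSC, and that of the kiPSC line is higher than both.

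From day 2 to day 3, edgeR called Spry1 higher (0.94 ± 0.24, adjusted p = 0.0207) and Spry2 (-0.76 ± 0.21, 0.0264) and Spry4 (-1.36 ± 0.32, 0.0127) lower, against 12.2% of all genes called (6.13% higher and 6.1% lower). Leaving out 1 of the 4 libraries left 0 or 1 of these calls, with Spry1 lost in every case (adjusted p 0.0567 to 0.168), Spry2 kept only without the second day 3 library and Spry4 kept only without the second day 2 library. Spry1 stood at 7.93 and 9.62 TPM on day 2 and at 17.31 and 20.4 TPM on day 3. From day 3 to kiPSC, 8 genes fell and 1 rose, against 57.9% called (28.6% lower and 29.3% higher). Dusp4 changed by -7.64 ± 0.33, Dusp6 by -3.83 ± 0.33 and Spry4 by -3.68 ± 0.49. Etv5 rose by 1.64 ± 0.17, from 68.04 and 77.63 TPM to 244.99 and 183.38 TPM (adjusted p = 5.74e-07), and Spry2 did not pass (0.12 ± 0.21). These steps share the libraries of the day between them.

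Other genes of the pathway on day 1 are to be read against the 23.2% of all genes called higher and 23.1% called lower. Of 20 tested genes known to respond to ERK, 8 rose and 5 fell over kEpiSC (median 0.40), and the 4 largest changes were those of Fos at 5.89 ± 0.59, Egr3 at 4.27 ± 0.62, Egr2 at 3.88 ± 0.38 and Epha4 at 3.70 ± 0.18. The first 3 are immediate early transcription factors and Epha4 is a receptor of ephrins. Of 9 MAP kinase phosphatases other than the members, 2 rose and 3 fell, with Dusp2 at 2.13 ± 0.63 and Dusp8 at -2.87 ± 0.55. Of 11 FGF ligands and receptors, 4 rose and 3 fell. Fgf8 rose from 30.13 and 11.42 TPM to 195.43 and 220.32 TPM, Fgf5 fell from 60.44 and 41.66 TPM to 0.76 and 0.81 TPM, and the receptor Fgfr1 rose from 77.7 and 77.83 TPM to 259.67 and 217.67 TPM.

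Markers of other cell types moved with the day 1 values. All 6 presomitic mesoderm markers (Tbx6, Msgn1, Hes7, Dll1, Dll3 and Lfng) rose on day 1 with a median of 5.93, their summed level going from 17.2 to 17.4 TPM in kEpiSC to 743 to 826 TPM, and none of them was at 0 on day 1. The sum was still 562 to 985 TPM on day 2, when Dusp4 and Spry4 had fallen, and 87.7 to 136 TPM on day 3. Of 6 trophoblast markers, 3 rose and 3 fell on day 1, none was at 0, and their summed level went from 33.2 to 40.0 TPM in kEpiSC to 302 to 343 TPM on day 1, 114 to 137 TPM on day 2 and 77.8 to 79.4 TPM on day 3, so it was highest on the day on which Dusp4 and Spry4 were highest. The summed level of 10 primed markers was 993 to 1179 TPM in kEpiSC, 2434 to 2592 TPM on day 1 and 309 to 343 TPM on day 3, and the naive sum stayed at 34.3 to 110 TPM from day 1 to day 3. The sum of 4 general pluripotency markers fell from 2421 to 2448 TPM in kEpiSC to 1193 to 1205 TPM on day 1. It was 256 to 284 TPM on day 3 and 2384 to 3149 TPM in kiPSC. The part of these changes in the day 1 peak was not tested.

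With JNKi, none of the 10 genes passed the test against the same day without it. On days 1, 2 and 3, edgeR called 0 of the 10 genes (0 at an unadjusted p under 0.05 on each day), and DESeq2 and limma called 0. The background was 0%, 0.00672% and 0% of 14892 genes, where 271, 430 and 498 genes had an unadjusted p under 0.05. On day 1, Dusp4 was at 188.31 and 177.54 TPM with JNKi and 189.97 and 191.38 TPM without, and Spry4 at 61.47 and 63.6 TPM with and 78.76 and 72.1 TPM without. The largest of the differences were those of Spry4, at -0.28 ± 0.28 on day 1 and 0.32 ± 0.27 on day 2. Averaged over the 3 days, a contrast added after the values were seen, the 10 genes lay between -0.11 ± 0.08 (Spred1) and 0.07 ± 0.11 (Spry2), and edgeR called 0 of all genes (680 unadjusted), limma 0 and DESeq2 11. The difference of the JNKi effect between days 3 and 1 was called for 0 of the 10 genes by each tool, 0 of them unadjusted, against 0% of all genes.

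The last set of comparisons concerned the loss of c-Jun. Jun, the deleted gene, was at 240.39 TPM in WT iEpiSC, 134.81 TPM in WT kiEpiSC, 143.32 and 66.49 TPM in WT cells on day 3 and 41.61 and 40.39 TPM in WT cells on day 3 with JNKi. In the JunKO libraries it was at 14.62, 7.1, 5.1, 5.77, 5.01 and 8.63 TPM in the same order, below every WT library of the same condition. The Jun level thus went with the label of genotype in all 12 libraries.

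In each of 3 conditions Dusp4 was higher in every JunKO library than in every WT library, but no single condition passed the test. In primed cells Dusp4 was at 33.72 and 27.31 TPM in WT and 43.34 and 57.44 TPM in JunKO (0.69 ± 0.21, adjusted p = 0.242 in edgeR). On day 3 in iCD1 it was at 61.67 and 55.89 TPM in WT and 102.58 and 89.82 TPM in JunKO (0.71 ± 0.20, 0.115). On day 3 with JNKi it was at 63.96 and 74.31 TPM in WT and 135.97 and 100.26 TPM in JunKO (0.73 ± 0.19, 0.0958). Separation of the genotypes in a single condition was not particular to Dusp4. Counting Dusp4, 2 feedback genes were higher and 2 lower in JunKO without overlap in primed cells. The counts were 3 higher and 2 lower on day 3, and 1 higher and 2 lower on day 3 with JNKi. How often all genes separate in this way was not tested. With 2 libraries on each side, ranges can separate easily. The separation of Dusp4 and these counts are therefore no evidence of a genotype effect. No library is shared between the 3 conditions, but the day 3 cells came from the kiEpiSC of the primed condition. All 3 tests also came from 1 fit of the 12 libraries, so they are not independent repeats.

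Averaged over the 3 conditions, a contrast chosen after these values were seen, Dusp4 was higher in JunKO by 0.71 ± 0.12 (adjusted p = 0.00419 in edgeR, 755 or 5.74% of 13152 genes called, 4.68% higher and 1.06% lower), and DESeq2 and limma called it as well. It was the one member that edgeR called in this fit, though with no filter Dusp6 was called lower as well (-0.33, adjusted p = 0.00891). Leaving out any single library gave 0.60 to 0.82, with adjusted p from 0.000799 to 0.0421. Since the contrast was picked for this gene, its p is no independent evidence. Spred2 was at -0.25 ± 0.10 (adjusted p = 0.192, and 0.0267 without the first JunKO library with JNKi). Over the same average, naive markers were also higher in JunKO, with 3 of 10 called and a summed level on day 3 of 537 to 1004 TPM against 73.4 to 217 TPM in WT. Of 4 general pluripotency markers, Nanog (1.03 ± 0.23) and Sox2 (0.35 ± 0.08) were called higher, and the summed level of the 4 on day 3 in iCD1 was 478 to 759 TPM in JunKO and 262 to 358 TPM in WT. On day 3 with JNKi it was 960 to 1145 TPM and 546 to 753 TPM, and the sum of 10 primed markers, 0 of them called, was 1030 to 1278 TPM and 621 to 656 TPM. In primed cells, iEpiSC and then kiEpiSC, both sums were lower in JunKO. The general sum was 2103 and 2406 TPM in JunKO and 2377 and 2529 TPM in WT, and the primed sum 1868 and 1730 TPM and 2343 and 2243 TPM. The naive sum there was 48.7 and 121 TPM in JunKO and 40.3 and 37.6 TPM in WT. The part of these in the value of Dusp4 was not tested.

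**Figure D4:**
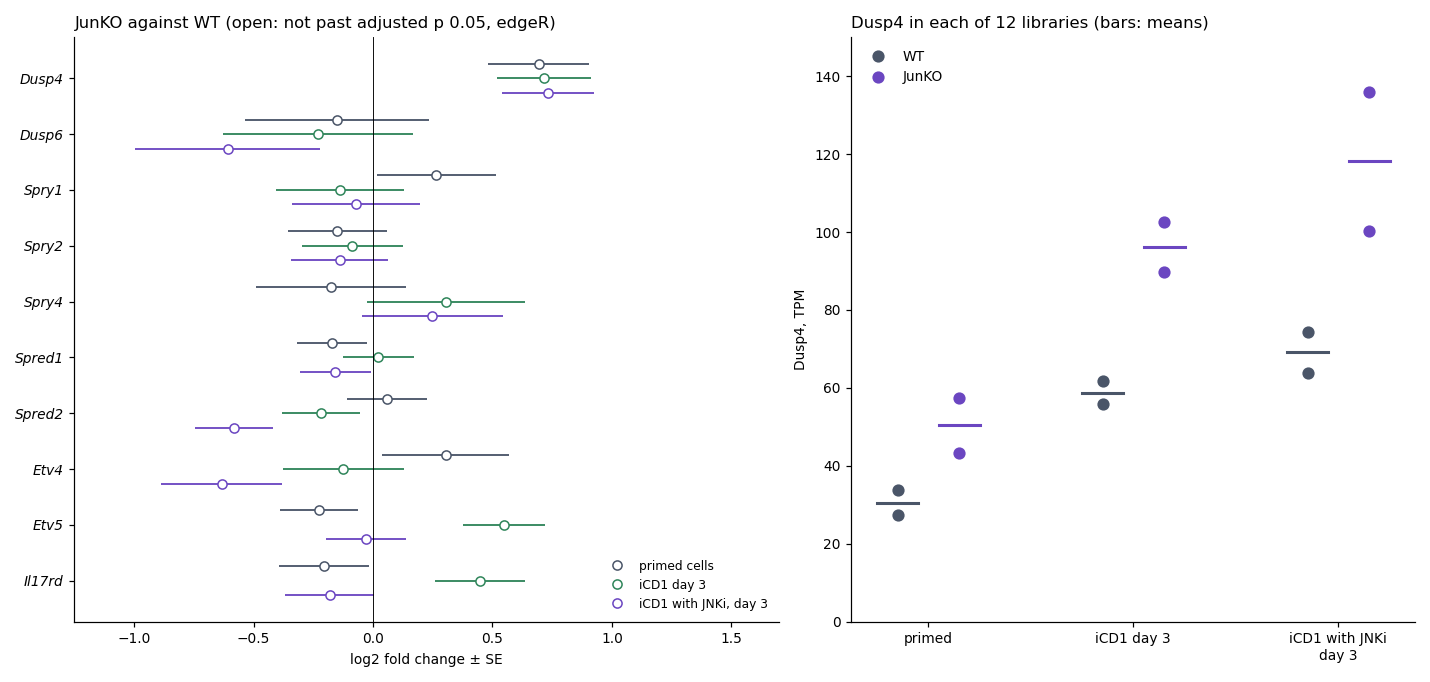
Left, log2 fold change of the 10 genes with its SE for JunKO against WT in primed cells, on day 3 in iCD1 and on day 3 with JNKi, all open since none passed an adjusted p of 0.05. Right, TPM of Dusp4 in the 12 libraries, where each JunKO library lies above the WT libraries of its condition. Other feedback genes also separated in single conditions, and the share of all genes that do so was not tested.

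In the single conditions, edgeR called 0 of the 10 genes for JunKO against WT (1, 3 and 3 at an unadjusted p under 0.05 in primed cells, on day 3 and on day 3 with JNKi), and DESeq2 and limma called 0. The background was 0.335%, 1.57% and 0.935% of 13152 genes, where 1054, 1681 and 2144 genes had an unadjusted p under 0.05. Besides Dusp4 the feedback genes with an unadjusted p under 0.05 were Etv5 (0.55 ± 0.17) and Il17rd (0.45 ± 0.19) on day 3, and Spred2 (-0.58 ± 0.16) and Etv4 (-0.63 ± 0.25) with JNKi. Leaving out the first JunKO library with JNKi brought Spred2 (adjusted p = 0.0110) and Etv4 (0.0135) past the threshold, and leaving out the second brought Dusp4 (0.0414) past it.

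JNKi on day 3 was tested again within each genotype of these cells. In WT, edgeR called 0 of the 10 genes (2 unadjusted, Spry4 at 0.94 ± 0.32 with adjusted p = 0.233 and Etv5 at 0.76 ± 0.17 with 0.0873), DESeq2 called 1, which was Etv5, and limma 0, against 0.471% of all genes. Of 13152 genes, 1775 had an unadjusted p under 0.05 in edgeR. Etv5 was at 68.52 and 66.42 TPM without and 90.56 and 115.1 TPM with JNKi. In JunKO edgeR called 0 (1 unadjusted, Spry4 at 0.88 ± 0.31), and DESeq2 and limma 0, against 0.0456%, with 1649 of all genes unadjusted. The difference of the JNKi effect between the genotypes was called for 0 of the 10 genes (2 unadjusted, Etv5 at -0.58 and Il17rd at -0.63) by any of the 3 tools, against 0% of all genes (750 unadjusted in edgeR).

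From the primed state to day 3 in iCD1, WT cells showed 1 feedback gene higher and 3 lower, against 27.5% of 13152 genes called (14.4% higher and 13.1% lower), and JunKO cells the same counts against 23.8% (13.2% higher and 10.6% lower). Etv5 fell by 1.66 ± 0.19 in WT (adjusted p = 0.000151 in edgeR), from 140.62 and 165.22 TPM to 68.52 and 66.42 TPM, and by 0.89 ± 0.18 in JunKO (0.00577), from 108.82 and 162.1 TPM to 74.8 and 98.04 TPM. These log2 fold changes rest on counts and, through the term for the line, are set against the kiEpiSC level. They therefore differ from the ratios of mean TPM, which were 0.441 in WT and 0.638 in JunKO. The other calls were Dusp4 (0.81 ± 0.24), Spry2 (-0.80 ± 0.23) and Spred1 (-0.53 ± 0.17) in WT and Dusp4 (0.83 ± 0.22), Spry1 (-0.88 ± 0.28) and Spry2 (-0.74 ± 0.23) in JunKO. In WT the Spry2 ranges overlapped, at 37.96 to 61.33 TPM on day 3 and 56.18 to 82.83 TPM in primed cells. With all 38 libraries in 1 fit, which averages iEpiSC and kiEpiSC, Spry2 was at -0.51 in WT and -0.46 in JunKO. Leaving out 1 library left 1 to 3 of the 4 calls in WT and 0 to 2 in JunKO. In WT, Etv5 held without any single library (adjusted p 0.00106 to 0.0173), while Dusp4 was lost without kiEpiSC (0.710) or either day 3 library, Spry2 without kiEpiSC (0.459) or the second day 3 library, and Spred1 without either of these or iEpiSC (0.0949). In JunKO, Spry1 and Spry2 were lost without any of the 4 libraries, Dusp4 without iEpiSC (0.0771), kiEpiSC (0.112) or the first day 3 library (0.0820), and Etv5 without kiEpiSC (0.331). The difference between the genotypes was called for 0 of the 10 genes by edgeR, DESeq2 and limma (2 unadjusted, Etv5 at 0.77 ± 0.24 and Il17rd at 0.65), against 0.0152% of all genes (730 unadjusted in edgeR).

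The 10 profiles were alike to different degrees. Over the 18 group means of log2(TPM + 1), Dusp6 followed the mean of the other 9 genes most closely (Pearson r = 0.959), then Spred1 (0.935), Spry4 (0.890), Il17rd (0.877), Dusp4 (0.863), Etv4 (0.756) and Spry2 (0.728). Spred2 (0.483) and Spry1 (0.314) followed it less, and Etv5 ran against it (-0.423). The closest pair was Dusp6 and Spred1 (0.971). These values describe 18 means that share media, lines and libraries of unequal number, and no p is given. The span of a gene over the groups differed widely. Dusp4 ranged from 0.375 TPM in kiPSC to 190.7 TPM on day 1, a 508-fold span, Spry4 spanned 143-fold and Dusp6 60.5-fold, and the other 7 genes spanned 3.175-fold (Etv5) to 7.10-fold (Etv4). The order of the Dusp4 levels began with kiPSC and ESC, whose ranges overlap, followed by WT primed cells and EpiSC at 19.18 to 38.18 TPM. The JunKO primed libraries and kEpiSC overlapped at 43.34 to 62.26 TPM, days 2 and 3 of cells with c-Jun overlapped these at 51.85 to 79.68 TPM, followed by JunKO cells on day 3 at 89.82 to 135.97 TPM, and day 1 at 177.54 to 191.38 TPM. The highest mean was on day 1 for 8 of the 10 genes, with JNKi for Dusp6 and without it for the rest, and the exceptions were Spry1, highest in JunKO iEpiSC, and Etv5, highest in kiPSC.

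**Figure D5:**
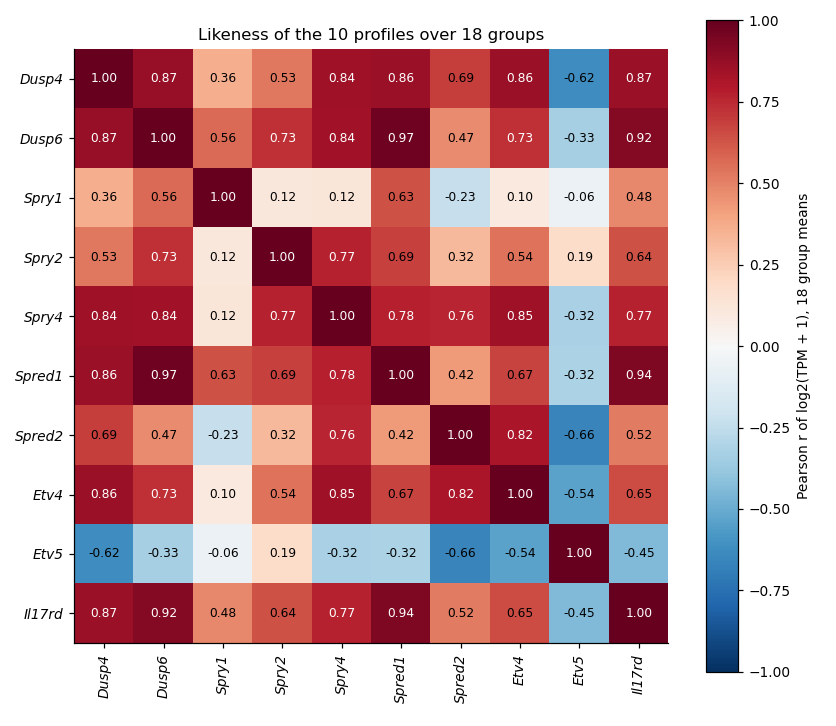
Pearson r between the 10 profiles over 18 group means of log2(TPM + 1), from -1 in blue to 1 in red. Dusp4, Dusp6, Spry4, Spred1, Il17rd and Etv4 form a red block, in which the lowest r is that of Etv4 and Il17rd at 0.653, while the Etv5 column is below 0 for all but Spry2.

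Among 12069 genes compared, the profiles most like the mean of the 10 were those of Zyx (r = 0.973), Amot (0.968) and Slc8a2 (0.959). Zyx was also the gene most like Dusp6 (0.972). The genes most like Dusp4 were Capn2 (0.968), Heph (0.959) and Lamb1 (0.953), and those most like Etv5 were Lrpap1 (0.971), Chmp4c (0.950) and L3mbtl2 (0.949). For Spry4 they were Amot (0.952), Wnt8a (0.940) and Fbxl17 (0.935), and for Spry1 Ank3 (0.947), Ddr1 (0.942) and Cebpb (0.932).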

How the data were processed

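RNA libraries of 38 mouse samples were analysed from 1 gene table each. Per the submitters' processing notes, the authors used bcl2fastq, Bowtie2 and RSEM with the mouse build mm10, whose versions and annotation the sources used here do not give. The study's methods also describe dropping mitochondrial reads and those of low mapping quality. The labels name a TruSeq kit and the study's methods another. The deposited expected counts hold RSEM's unscaled estimate for each gene. For levels the deposited TPM values were used, which correct for effective length and have the same sum in each library. The deposited FPKM values were not used. For ESC replicates 1 to 4 gene length exceeded effective length by 73.5 bases, unlike the other libraries.

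Symbols came from GENCODE M21 and covered 99.68% of counts. Spry3 is not analysed here. Groups came from the labels. The study calls some of its replicates biological, but the labels do not say which libraries come from separate cultures, so p-values measure the spread between libraries, which may be partly technical. No library was a copy of another of its group (chi-square per degree of freedom at least 4.15). After rounding of the expected counts, the quasi-likelihood test of edgeR 4.0.16 under R 4.3.3 was run with library sizes scaled by TMM, on genes kept by filterByExpr (minimum count 10). A gene was called at a Benjamini-Hochberg adjusted p under 0.05, adjusted over every gene of the fit, and ± gives the standard error of a log2 fold change. ESC, EpiSC, kEpiSC and kiPSC formed 1 fit (13 libraries, 13923 genes), kEpiSC, kiPSC and days 1 to 3 a second (17 libraries, 14892 genes) and WT and JunKO cells the last (12 libraries, 13152 genes, with a term for the line in primed cells). The scripts were tested on simulated counts.

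Alternatives were DESeq2 1.42.0, RLE size factors, no filter or a filter at 1 CPM, limma 3.58.1 on log2(TPM + 1) or log2(TPM + 0.1) for genes of at least 1 TPM, the replicate number as a block, only the groups compared, all 38 libraries, other sets of ESC libraries, and leaving out each library. The 10 genes and all lists were chosen with earlier results of these data known. From each list, up to 4 called genes with the largest change were named, along with Jun, Klf4 and the main FGF genes. Likeness was Pearson r over 18 group means, among genes reaching 5 TPM in a group. The averages over 3 conditions and over 3 days were added after values were seen, and the ETS core was searched after the other motifs gave no match. Promoters are RefSeq's on GRCm38.p6. Windows that overlap an annotated transcript are not printed.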

Additional observations from a re-analysis of the deposited data

Results flagged for a closer look

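Among 20 pairs of a gene and a group of 4 or 5 libraries (ESC and EpiSC), 4 held 1 library far from the others of its group by Dixon's test, where chance gives about 1 in 20. For Dusp6, ESC replicate 5 was at 8.33 TPM and the other ESC libraries at 1.69 to 2.74 TPM. This library also had the highest summed level of fibroblast or feeder markers, at 478 TPM, and their part in its Dusp6 value was not tested. For Dusp6, EpiSC replicate 3 was at 319.43 TPM and the other EpiSC libraries at 117.3 to 138.61 TPM. For Etv4, ESC replicate 2 was at 55.09 TPM and the other ESC libraries at 18.86 to 26.61 TPM. For Il17rd, ESC replicate 4 was at 16.54 TPM and the other ESC libraries at 9.57 to 10.61 TPM. The calls of these 3 genes between ESC and EpiSC held without each of these libraries.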

How the results depend on the processing

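Of the log2 fold changes of the 10 genes recomputed under all alternatives, 3247 kept their direction and side of the threshold, 85 no longer passed, 37 newly passed and 0 turned their sign with a call. The number of the 10 genes called moved by over 1.5 times, or from 0, in the following comparisons. For kEpiSC against EpiSC it went from 0 to 1 with DESeq2 and 2 with all 38 libraries, and 0 to 1 when leaving out a library. For day 1 against kEpiSC it went from 8 to between 5 and 8 without single libraries, for day 2 against day 1 from 8 to 5 with all 38 libraries, and for day 3 against day 2 from 3 to 0 with all 38 libraries and to 0 or 1 without single libraries. For JunKO against WT it went from 0 to 1 in primed cells with no filter or only the groups compared, from 0 to 2 on day 3 with no filter, and from 0 to 4 with JNKi with no filter, 0 to 2 without single libraries. The average over conditions went from 1 to 2 with no filter and 1 to 2 without single libraries. For JNKi in WT it went from 0 to 1 with DESeq2, only the groups compared or all 38 libraries and 3 with no filter. For WT day 3 against primed it went from 4 to 7 with no filter, 2 with limma at either pseudocount and 1 to 3 without single libraries, and for JunKO from 4 to 2 with DESeq2, limma at either pseudocount or only the groups compared and 0 to 2 without single libraries. For the transition effect in JunKO minus WT it went from 0 to 1 with no filter. Smaller moves were from 10 to 9 for ESC against EpiSC with DESeq2, limma, RLE, the block, only the groups compared or 7 of the 9 single libraries left out, and to 8 with ESC replicate 5 only. For day 1 against kEpiSC 8 became 6 with all 38 libraries and 9 with only the groups compared, and for day 2 against day 1 it became 7 with limma and 6 or 7 without single libraries. The cause was not tested, though fewer samples enter when libraries are left out.

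Same-numbered libraries of different groups correlated at a median of 0.036, 0.054 and 0.169 in the 3 fits. The minima were -0.078, -0.128 and -0.018 and the maxima 0.112, 0.418 and 0.409. The last values are of the WT and JunKO day 3 groups, in each of which Dusp6 was higher in replicate 1 than in replicate 2. An effect shared by replicate number is therefore possible in these cells, and the main fits hold no term for it. With the replicate block, 2 of the 10 genes were called for JunKO against WT with JNKi (Dusp4 and Dusp6) in place of 0, 2 for the average over conditions in place of 1 (Dusp6 at -0.37, adjusted p = 0.0411, beside Dusp4), and 1 (Etv5) for JNKi in WT in place of 0. Spred2 was lost between ESC and EpiSC, and Dusp6 was gained from day 2 to day 3.

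Counts over all genes also moved. For kEpiSC against EpiSC, 176 became 604 with DESeq2 and 1013 with all 38 libraries. For kiPSC against ESC, 20 became 80 with DESeq2 and 4 with ESC replicate 5 only. For JunKO against WT, 44, 206 and 123 became 389, 822 and 1138 with no filter. For JNKi in WT, 62 became 792 and in JunKO 6 became 717 with no filter, and on days 1 to 3 it called 54, 83 and 65 genes. Depth limits Dusp4 and Spry4 most, which had under 30 counts in every ESC and kiPSC library.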

Other observations

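The cascade that the feedback genes act on is given for kiPSC against kEpiSC, where 28.2% of all genes were called higher and 29.2% lower. Of 21 genes from adaptors to ERK, 7 rose and 10 fell, with Gab1 at 3.26 ± 0.14, Ksr1 at 2.02 ± 0.23, Mapk3, which encodes ERK1, at -1.60 ± 0.15 and Shc1, an adaptor, at -1.38 ± 0.11. Of 20 genes known to respond to ERK, 1 rose (Epha4 at 4.24 ± 0.19) and 10 fell, led by Myc at -4.78 ± 0.52. The ETS list, which holds repressors and partners of ETS factors, had 4 genes higher and 1 lower, with Ets1 at -3.28 ± 0.64 and Cic, a repressor of Etv4 and Etv5, at 0.84 ± 0.14. From day 3 to kiPSC, 12 of the 20 genes known to respond to ERK fell and 4 rose, against 28.6% of all genes called lower and 29.3% called higher.

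Between JunKO and WT, averaged over the 3 conditions, some other genes of the pathway passed the test in edgeR. The background was 5.74% of 13152 genes called, 4.68% higher and 1.06% lower. This contrast was added after values were seen. The genes below were named from their lists for the size of their change, and the share called per list is not given here. The docking protein Gab1 was higher by 0.63 ± 0.12 (adjusted p = 0.0114) and the RAS activator Sos2 lower, at -0.50 ± 0.09 (0.00864). Among genes known to respond to ERK, Emp1 was at -1.50 ± 0.27 and Epha2 at 0.51 ± 0.10. Epha2 was also higher in JunKO on day 3 (0.95 ± 0.19) and with JNKi (1.11 ± 0.16). Of the FGF genes, Fgf4 was at 1.86 ± 0.36 and Fgfr1 at 0.48 ± 0.09. These values share libraries with those of Dusp4.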
